A study of Mus musculus with 17 samples.

Results

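The genes described here are 34 genes of the amino acid response and of one-carbon metabolism, listed by symbol. The list was not chosen by a measured value of this report, but earlier results of these data were known when it was drawn up. The 34 genes comprise 5 transcription factors, 6 target genes of the stress response, 10 enzymes of serine, one-carbon and proline synthesis, 8 amino acid transporters and 5 aminoacyl-tRNA synthetases. For each gene the brightest probe above background was used. Of the 34 genes, 31 had a probe with their symbol and 28 were above background on at least 3 arrays and could be tested, among 10717 genes tested in all. Slc7a5, Mthfd1l and Pycr1 had no such probe and were not analysed here, and Sesn2, Psph and Slc7a1 were too dim to be tested.

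Mouse CD8 T cells were profiled on 17 Illumina expression arrays, with 1 sample on each. All cells derived from OT-I mice of C57Bl/6 background aged 2 to 6 months, whose transgenic T-cell receptor recognises ovalbumin (OVA). Partial memory T cells (Tpm, n = 4 arrays) were primed by LSEC, the sinusoidal endothelial cells that line liver capillaries and present antigen, in a coculture. Memory cells (n = 3) were splenic and taken 3 months after a Listeria monocytogenes OVA infection, effector cells (Teff, n = 5) were activated in coculture with splenic dendritic cells, and naive cells (n = 5) were taken from spleens. For Teff 8 the source label reads spleen, where the other Teff arrays have the coculture. Whether the samples within a group had separate animals or cultures is not stated by the labels, and the p-values therefore reflect only how these samples vary, which may be technical.

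Cells sense a lack of amino acids through uncharged tRNAs, which activate the kinase GCN2. GCN2 phosphorylates the initiation factor eIF2 alpha, which slows translation in general but favours translation of the transcription factor ATF4, so that ATF4 activity is set largely above the level of its mRNA. ATF4, with C/EBP partners, binds C/EBP-ATF response elements and drives genes for amino acid synthesis, uptake and tRNA charging, among them enzymes that make serine and pass its carbon to folate for nucleotide synthesis. Activated T cells are known to raise serine and one-carbon enzymes as they prepare to divide.

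All values are log2 of the background-corrected intensity plus 16, a scale that understates the change of dim genes and on which the levels of different genes cannot be compared. The 15 arrays other than memory 3 and memory 5 had a mean signal of 227 to 471, against 140 on memory 3 and 96.7 on memory 5. Probes above background were 31.4% on memory 3 and only 19.9% on memory 5, against 31.5% to 39.5% on the 15 others. The main results on memory cells are therefore also given without memory 3 and memory 5. The closest group mean, by correlation, was that of the array's own group for 17 of 17 arrays. Of 10 T-cell markers with a probe, 8 were above background on all arrays, including Cd3d, Cd3e, Cd3g, Cd8b1, Lat and Zap70, while the probes of Cd8a and Cd5 were at or near background. In RNA of whole samples, fewer cells of a type and less RNA per cell cannot be told apart.

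Of the 28 tested genes, 18 had their highest mean in Teff, as did 30.4% of all 10717 genes. Here and below, a call means a limma p, adjusted over all genes, under 0.05 together with a change of 2-fold or more, or 1 unit of log2. In Teff against naive cells, 12 of 28 genes were higher and 3 lower, where 13.2% of all genes were called higher and 10.4% lower. In Tpm against naive cells, 7 were higher and 2 lower, against 8.3% and 4.75% of all genes. In Tpm against Teff, 1 was higher and 10 lower, against 7.35% and 7.62% of all genes. The median difference of the 28 genes was 0.81 in Teff against naive cells, 0.13 in Tpm against naive cells and -0.70 in Tpm against Teff, beside medians over all genes of 0.00, 0.05 and 0.04. These comparisons share arrays, so their counts are not independent of each other. Averaged over the 28 genes, Teff 17 lay 1.56 above the naive mean, against 0.995 to 1.15 on the other Teff arrays. Teff 17 was also the highest Teff array in each class of the genes. The highest of the 4 group means was that of naive cells for 6 of the other genes, Tpm for Shmt1 and Wars, and memory cells for Slc7a11 and Slc1a5, which were near background.

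**Figure D1:**
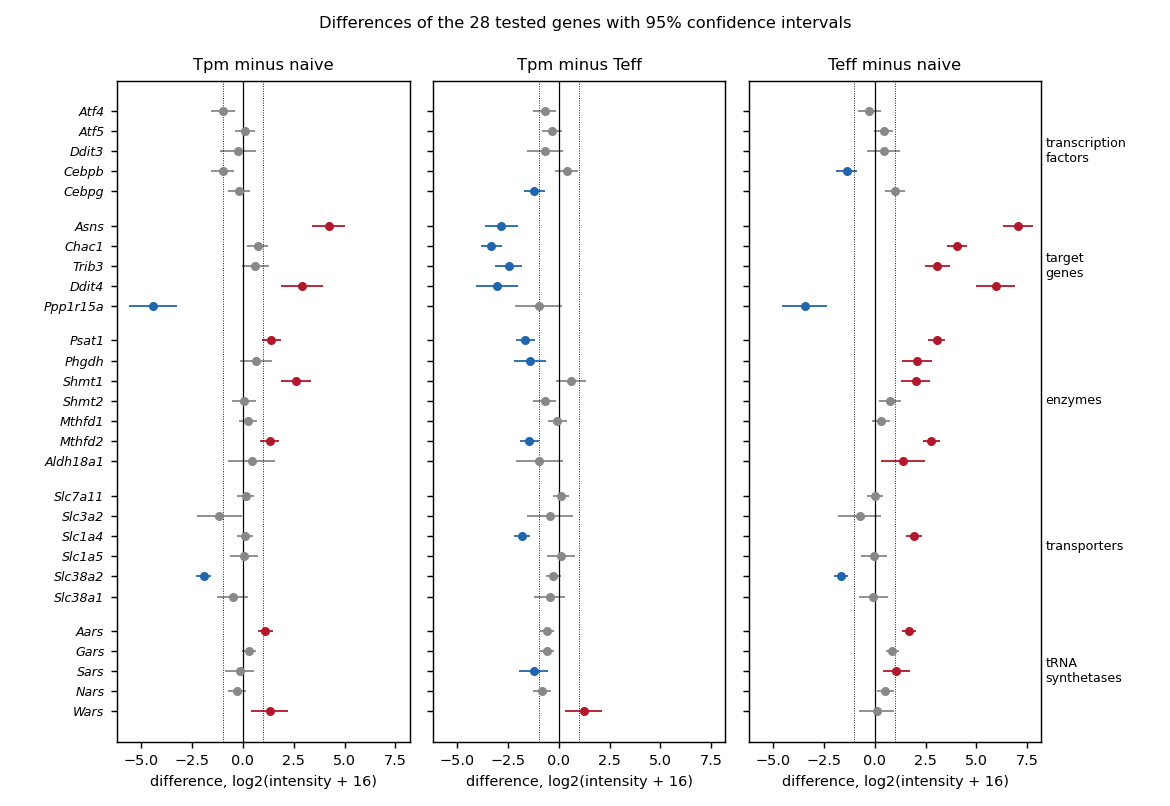
Differences of the 28 tested genes in log2(intensity + 16), with 95% confidence intervals, for Tpm minus naive, Tpm minus Teff and Teff minus naive cells. Red points were called higher, blue points lower and grey points not called, and the dotted lines mark a difference of 1 either way. Asns, Chac1, Trib3 and Ddit4 lie far right in Teff minus naive cells and left in Tpm minus Teff, while Ppp1r15a and Slc38a2 lie left against naive cells.

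The genes that changed most belonged to the targets of the stress response. Asparagine synthetase, Asns, makes asparagine from aspartate. Asns measured 8.92, 8.88, 8.49 and 8.66 in Tpm and 11.39, 11.36, 11.65, 11.40 and 12.00 in Teff, against 4.72, 4.43, 4.59, 4.42 and 4.38 in naive cells. The 3 groups did not overlap, and Asns was above background on only 1 of the 5 naive arrays, so that its naive level is close to the lowest that the arrays could measure. The difference was 4.23 (SE 0.38, adjusted p = 3.66e-07) in Tpm against naive cells, 7.05 (SE 0.36, adjusted p = 1.03e-10) in Teff against naive cells and -2.83 (SE 0.38, adjusted p = 2.28e-05) in Tpm against Teff. The Asns signal of Tpm lay between those of Teff and naive cells and apart from both.

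Ddit4 (REDD1), an inhibitor of the growth kinase complex mTORC1, had a like order of groups. Ddit4 measured 6.76, 7.38, 9.75 and 6.99 in Tpm and 10.87, 10.84, 10.07, 10.83 and 11.15 in Teff, against 4.77, 4.87, 4.25, 5.56 and 4.54 in naive cells, where 3 of 5 arrays were above background. No Tpm array reached the Teff range, and the single high Tpm value, 9.75, belonged to Tpm 14. The difference was 2.92 (SE 0.49, adjusted p = 0.000222) in Tpm against naive cells, 5.95 (SE 0.46, adjusted p = 1.17e-08) in Teff against naive cells and -3.03 (SE 0.49, adjusted p = 0.000122) in Tpm against Teff. Without Tpm 14, the difference was 2.23 (adjusted p = 0.000129) in Tpm against naive cells and -3.72 (adjusted p = 4.42e-07) in Tpm against Teff.

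Chac1 and Trib3 were high in Teff alone. Chac1, an enzyme that degrades glutathione, measured 5.46, 5.12, 4.43 and 4.80 in Tpm and 8.35, 7.66, 8.09, 8.16 and 9.17 in Teff, against 4.226, 4.243, 4.297, 4.197 and 4.196 in naive cells. All Teff arrays lay far above all others, 2 of 4 Tpm arrays were above background and no naive array was. Chac1 was therefore at least 11.1-fold higher in Teff than in naive cells (adjusted p = 3.78e-10) and differed by -3.33 (SE 0.24, adjusted p = 2.43e-08) in Tpm against Teff. Against naive cells, the Tpm difference of 0.72 (adjusted p = 0.0376) was under the minimum for a call. Trib3, a pseudokinase that restrains ATF4 and AKT signalling, measured 6.00, 6.74, 6.56 and 6.09 in Tpm and 8.80, 8.58, 8.82, 8.34 and 9.55 in Teff, against 5.39, 6.15, 6.02, 5.32 and 5.80 in naive cells. The Tpm and naive ranges overlapped and the Teff range lay above both. Trib3 differed by 3.08 (SE 0.30, adjusted p = 1.70e-07) in Teff against naive cells and -2.47 (SE 0.31, adjusted p = 1.17e-05) in Tpm against Teff, and by 0.61 (SE 0.31, adjusted p = 0.175) in Tpm against naive cells, which did not pass the test.

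Ppp1r15a (GADD34), the subunit that directs a phosphatase to eIF2 alpha and so ends the stress response, ran the other way. Ppp1r15a measured 6.52, 5.96, 7.13 and 7.14 in Tpm and 7.97, 7.75, 7.02, 7.92 and 7.77 in Teff, against 11.86, 11.01, 11.23, 11.32 and 10.24 in naive cells. Both cultured groups lay below every naive array. It fell in both, with a difference of -4.44 (SE 0.56, adjusted p = 1.32e-05) in Tpm against naive cells and -3.45 (SE 0.53, adjusted p = 3.61e-05) in Teff against naive cells. The difference of -0.997 (SE 0.56, adjusted p = 0.206) in Tpm against Teff did not pass the test. Naive cells came from tissue and both other groups from coculture, so that culture and cell state cannot be told apart in these comparisons. Sesn2, a leucine sensor and the remaining target, lay between 4.26 and 5.00 on all 17 arrays and was not tested.

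**Figure D2:**
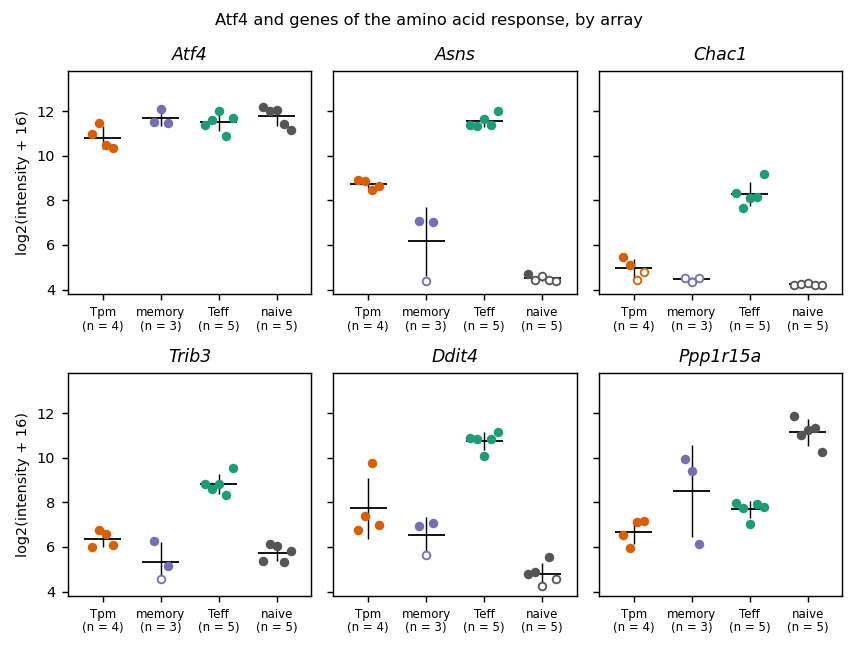
Levels of Atf4, Asns, Chac1, Trib3, Ddit4 and Ppp1r15a in log2(intensity + 16) on each array of Tpm, memory, Teff and naive cells. Each point is 1 array, open where the probe was not above background, with the mean as a horizontal and the SD as a vertical line. Asns lies at 8.49 to 8.92 in Tpm and 11.36 to 12.00 in Teff, against 4.38 to 4.72 in naive cells, while Atf4 lies between 10.33 and 12.18 throughout.

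Promoters of these genes, from 250 bases before to 50 after the annotated start, are given by RefSeq on build GRCm38.p6 for 29 of the 34 genes. They were searched on both strands for TGATGNAA, a core of the C/EBP-ATF response element to which ATF4 binds. The letters stood in 3.97% of 32851 such windows of all genes. They stood in those of 5 of 12 genes called higher in Teff than in naive cells (Asns, Chac1, Trib3, Slc1a4 and Aars) and of 2 of 12 tested genes not called higher (Slc7a11 and Gars), and in that of Pycr1, which was not analysed here. The genes were listed for this response, so a larger share than in all windows was to be expected whatever the arrays measured. CACGTG, an E-box, stood in 7.15% of all windows and in those of Aldh18a1 and Aars. TGACGTCA, a cyclic AMP response element, stood in 1.79% of all windows and in that of Ppp1r15a alone among the 29. The 5 promoters with TGATGNAA of genes called higher in Teff and, for contrast, that of Ddit4, which was called higher in Teff and lacks the letters, are shown because these genes were among those called higher in Teff than in naive cells. Capitals mark the letters, shown as their reverse complement where the match is on the other strand. The Asns window lies at chr6:7693160-7693459, minus strand, with the match starting 23 bases before the start. Those of Chac1 (chr2:119350992-119351291, plus strand) and Slc1a4 (chr11:20332664-20332963, minus strand) hold it 193 and 4 bases before the start. The Trib3 window (chr2:152344011-152344310, minus strand) holds it at base 15 after the start. The Aars window (chr8:111033592-111033891, plus strand) holds it 112 bases before the start and at base 10 after it, and the Ddit4 window is chr10:59951721-59952020, minus strand. A match describes the letters only, and binding was not measured.
Asns: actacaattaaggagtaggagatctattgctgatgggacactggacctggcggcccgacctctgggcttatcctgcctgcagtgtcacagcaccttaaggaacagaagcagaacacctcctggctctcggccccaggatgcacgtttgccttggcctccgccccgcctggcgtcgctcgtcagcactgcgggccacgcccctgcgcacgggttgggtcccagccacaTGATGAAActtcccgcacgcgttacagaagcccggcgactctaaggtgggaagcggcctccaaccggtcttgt
Chac1: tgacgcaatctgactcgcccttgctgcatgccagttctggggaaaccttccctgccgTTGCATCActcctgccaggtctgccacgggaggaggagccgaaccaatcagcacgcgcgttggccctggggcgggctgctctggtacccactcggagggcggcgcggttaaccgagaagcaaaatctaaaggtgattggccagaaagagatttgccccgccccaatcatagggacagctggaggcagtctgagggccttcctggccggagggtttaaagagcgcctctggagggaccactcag
Trib3: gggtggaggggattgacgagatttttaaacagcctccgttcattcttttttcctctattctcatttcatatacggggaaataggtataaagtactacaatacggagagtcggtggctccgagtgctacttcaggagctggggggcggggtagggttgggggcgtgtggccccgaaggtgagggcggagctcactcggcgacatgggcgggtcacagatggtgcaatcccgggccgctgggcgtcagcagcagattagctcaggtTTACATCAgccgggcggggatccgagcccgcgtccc
Slc1a4: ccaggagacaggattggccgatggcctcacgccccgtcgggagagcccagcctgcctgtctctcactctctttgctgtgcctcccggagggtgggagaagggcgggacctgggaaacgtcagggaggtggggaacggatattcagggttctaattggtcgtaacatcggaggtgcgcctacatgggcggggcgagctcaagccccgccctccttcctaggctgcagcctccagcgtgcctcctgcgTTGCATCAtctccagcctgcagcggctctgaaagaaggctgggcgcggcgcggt
Aars: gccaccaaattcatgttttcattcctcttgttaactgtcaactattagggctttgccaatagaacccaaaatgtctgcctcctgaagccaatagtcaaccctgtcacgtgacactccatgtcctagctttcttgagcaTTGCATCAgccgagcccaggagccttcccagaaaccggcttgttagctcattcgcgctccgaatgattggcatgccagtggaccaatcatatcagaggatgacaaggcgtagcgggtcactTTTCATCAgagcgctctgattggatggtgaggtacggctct
Ddit4: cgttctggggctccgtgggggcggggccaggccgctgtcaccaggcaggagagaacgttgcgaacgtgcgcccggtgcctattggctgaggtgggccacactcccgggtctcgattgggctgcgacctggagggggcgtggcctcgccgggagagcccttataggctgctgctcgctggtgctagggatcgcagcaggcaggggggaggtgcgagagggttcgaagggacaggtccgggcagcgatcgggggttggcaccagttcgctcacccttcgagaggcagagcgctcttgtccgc

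By limma, none of the 5 transcription factors of the response was called higher in Tpm or in Teff than in naive cells, where 0 and 1 of them were higher at an unadjusted p under 0.05. Atf4 measured 10.96, 11.46, 10.48 and 10.33 in Tpm and 11.37, 11.60, 12.01, 10.88 and 11.69 in Teff, against 12.18, 12.01, 12.06, 11.44 and 11.16 in naive cells. The 3 ranges overlapped, with 2 of 4 Tpm arrays below all arrays of both other groups. Its difference was -0.96 (SE 0.28, adjusted p = 0.0158) in Tpm against naive cells, under the minimum for a call, -0.26 (SE 0.26, adjusted p = 0.484) in Teff against naive cells and -0.70 (SE 0.28, adjusted p = 0.068) in Tpm against Teff. In Tpm against naive cells Atf4 was called lower in 7 of 30 alternatives, among them without any 1 of Tpm 4, Tpm 7, naive 12 or naive 13, at -1.18 (adjusted p = 0.00522) without Tpm 7. A second, dimmer Atf4 probe gave 7.52, 5.86, 8.18 and 8.24 in Tpm and 9.34, 9.16, 9.19, 9.48 and 10.15 in Teff, against 9.88, 7.73, 9.46, 9.33 and 8.77 in naive cells. By that probe Atf4 was called lower in both Tpm comparisons, with a difference of -1.58 (SE 0.47, adjusted p = 0.0224) in Tpm against naive cells and -2.02 (SE 0.47, adjusted p = 0.00404) in Tpm against Teff, with p-values adjusted over all 20204 probes. Both probes had their lowest group mean in Tpm, and neither was called higher in Teff than in naive cells, where the second differed by 0.43 (SE 0.44, adjusted p = 0.501). Within Tpm, however, the 2 probes put the arrays in opposite order. Tpm 7 was the highest Tpm array by the brightest probe, at 11.46, and the lowest by the second, at 5.86.

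Cebpb, a C/EBP factor that can pair with ATF4, measured 8.33, 8.65, 9.70 and 8.98 in Tpm and 8.53, 8.55, 8.15, 8.45 and 8.96 in Teff, against 10.26, 9.63, 10.29, 9.90 and 9.45 in naive cells. It fell in Teff against naive cells, with a difference of -1.38 (SE 0.25, adjusted p = 0.000207) and no overlap. In Tpm against naive cells its difference was -0.99 (SE 0.27, adjusted p = 0.00983), just under the minimum for a call, and it was called lower without Tpm 14, with -1.26 (adjusted p = 0.0013). Cebpg, another partner of ATF4, measured 7.73, 7.49, 8.48 and 7.37 in Tpm and 9.19, 8.53, 8.62, 8.68 and 9.81 in Teff, against 7.91, 8.23, 7.79, 8.03 and 7.89 in naive cells. It was lower in Tpm than in Teff, with a difference of -1.20 (SE 0.26, adjusted p = 0.00162) and no overlap, while in Teff against naive cells its difference of 0.996 (adjusted p = 0.00263) missed the minimum and was a call in 9 of 30 alternatives. A second, dimmer Cebpg probe differed by 0.35 (SE 0.23, adjusted p = 0.319) in Tpm against Teff, the opposite sign, so that the Cebpg result rests on the brighter probe. That result ended without Teff 17, at -0.99 (adjusted p = 0.00332), under the minimum. Atf5, an ATF4 relative, and Ddit3 (CHOP), a factor of prolonged stress, were not called in these 3 comparisons, with differences between -0.68 and 0.45. Without Tpm 14, Ddit3 was called lower in Tpm than in Teff, at -1.10 (adjusted p = 0.0435).

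The enzymes called belong to serine synthesis, to the folate cycle and, for Aldh18a1, to proline synthesis. Of 7 enzymes tested, 5 were called higher in Teff than in naive cells (Psat1, Phgdh, Shmt1, Mthfd2 and Aldh18a1), 3 in Tpm than in naive cells (Psat1, Shmt1 and Mthfd2), and 3 were called lower in Tpm than in Teff (Psat1, Phgdh and Mthfd2). Psat1, the aminotransferase of serine synthesis, measured 10.39, 10.24, 10.20 and 10.65 in Tpm and 12.05, 11.86, 11.88, 12.03 and 12.31 in Teff, against 8.88, 8.82, 9.14, 9.08 and 8.98 in naive cells. The 3 groups were separated with little spread within each. Psat1 differed by 1.39 (SE 0.22, adjusted p = 0.000148) in Tpm against naive cells, 3.04 (SE 0.21, adjusted p = 2.76e-09) in Teff against naive cells and -1.66 (SE 0.22, adjusted p = 1.94e-05) in Tpm against Teff.

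Phgdh, the dehydrogenase of the first step of serine synthesis, measured 5.21, 4.46, 5.94 and 6.56 in Tpm and 6.64, 6.84, 6.44, 7.51 and 7.40 in Teff, against 5.01, 4.59, 4.72, 5.50 and 4.71 in naive cells, where 2 of 5 arrays were above background. The Tpm arrays were spread widely and overlapped both other groups. Phgdh was higher in Teff than in naive cells by 2.06 (SE 0.35, adjusted p = 0.000112) and lower in Tpm than in Teff, with a difference of -1.43 (SE 0.37, adjusted p = 0.00712). Between Tpm and naive cells it differed by 0.63 (SE 0.37, adjusted p = 0.248), which did not pass the test. Psph, the phosphatase of the last step, lay between 4.15 and 4.60 on all 17 arrays and was not tested.

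Mthfd2, the mitochondrial enzyme that oxidises one-carbon folates, measured 9.58, 9.75, 10.16 and 9.52 in Tpm and 11.27, 10.88, 11.04, 11.18 and 11.69 in Teff, against 8.70, 8.67, 8.35, 8.50 and 7.88 in naive cells. No groups overlapped. It differed by 1.33 (SE 0.22, adjusted p = 0.000219) in Tpm against naive cells, 2.79 (SE 0.21, adjusted p = 7.71e-09) in Teff against naive cells and -1.46 (SE 0.22, adjusted p = 6.86e-05) in Tpm against Teff. Its cytosolic relative Mthfd1 was not called in any of the 3, with differences of 0.25 in Tpm against naive cells, 0.32 in Teff against naive cells and -0.07 in Tpm against Teff.

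The hydroxymethyltransferases, which move a carbon from serine to folate, differed in their order of groups. Shmt1, the cytosolic form, measured 9.24, 8.84, 7.35 and 8.74 in Tpm and 7.65, 7.68, 7.90, 8.14 and 8.25 in Teff, against 5.51, 6.54, 5.49, 6.01 and 6.01 in naive cells. Of the Tpm arrays, 3 lay above all Teff arrays and Tpm 14 below them, and both groups lay above all naive arrays. Shmt1 was higher in Tpm than in naive cells by 2.63 (SE 0.35, adjusted p = 2.54e-05) and in Teff than in naive cells by 2.01 (SE 0.33, adjusted p = 8.13e-05). In Tpm against Teff it differed by 0.62 (SE 0.35, adjusted p = 0.216), which did not pass the test, and without Tpm 14 by 1.02 (adjusted p = 0.0174), which did. Shmt2, the mitochondrial form, differed by 0.76 (SE 0.25, adjusted p = 0.022) in Teff against naive cells, under the minimum for a call, and by 0.05 (SE 0.27, adjusted p = 0.925) in Tpm against naive cells. Aldh18a1, which makes the precursor of proline, measured 8.21, 8.71, 8.93 and 9.22 in Tpm and 9.57, 9.75, 9.03, 9.93 and 10.37 in Teff, against 8.41, 8.19, 8.05, 8.65 and 8.43 in naive cells. It was higher in Teff than in naive cells by 1.38 (SE 0.52, adjusted p = 0.0391), a call that was kept in 21 of 30 alternatives, and was not called in Tpm against either group. Its call ended without any 1 of Teff 6, Teff 8, Teff 16, Teff 17, naive 1, naive 2, naive 11 or naive 13, with a difference of 1.22 (adjusted p = 0.0935) without Teff 17.

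**Figure D3:**
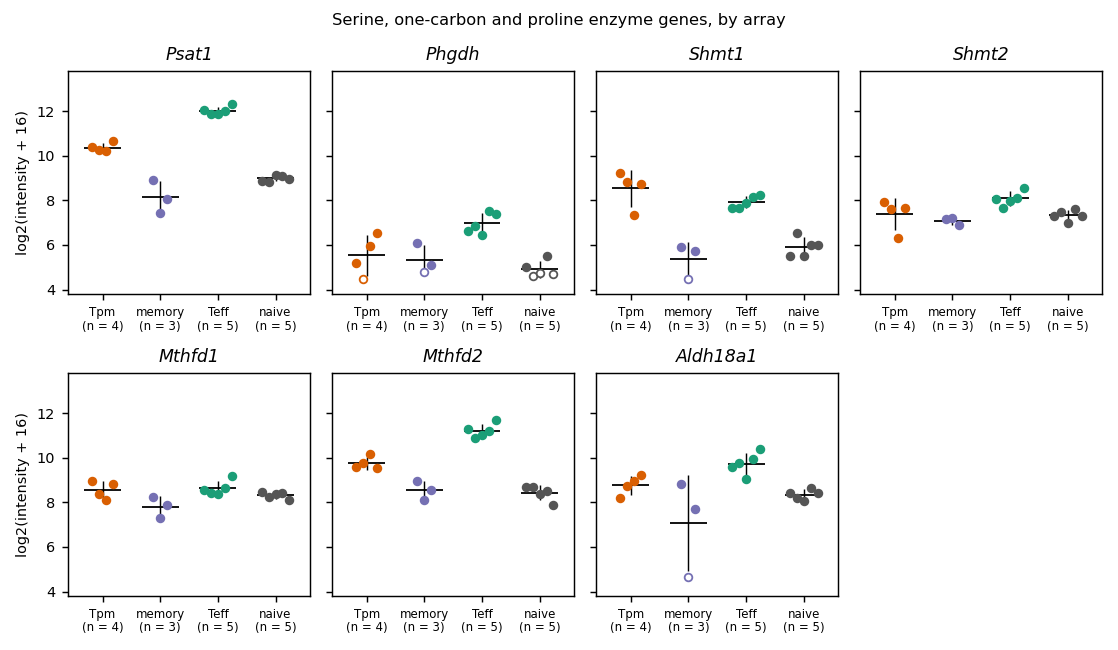
Levels of the 7 tested enzyme genes in log2(intensity + 16) on each array of Tpm, memory, Teff and naive cells, drawn like the stress targets. Psat1 and Mthfd2 form separate steps, with Psat1 at 10.20 to 10.65 in Tpm and 11.86 to 12.31 in Teff, against 8.82 to 9.14 in naive cells. Shmt1 is highest on 3 of 4 Tpm arrays.

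Of 6 transporters tested, 1 was higher and 1 lower in Teff against naive cells, 1 was lower in Tpm against naive cells and 1 lower in Tpm against Teff. Slc1a4 (ASCT1), which carries alanine, serine and cysteine, measured 4.36, 4.36, 4.59 and 4.29 in Tpm and 6.08, 6.06, 5.76, 6.21 and 6.98 in Teff, against 4.26, 4.22, 4.41, 4.18 and 4.37 in naive cells. It was above background on all 5 Teff arrays and on no Tpm or naive array. Slc1a4 was at least 2.65-fold lower in Tpm than in Teff (adjusted p = 1.36e-06) and at least 2.66-fold higher in Teff than in naive cells (adjusted p = 1.11e-07). Slc38a2 (SNAT2), a sodium-coupled carrier of neutral amino acids that amino acid lack is known to induce, measured 10.15, 10.03, 10.49 and 10.18 in Tpm and 10.52, 10.49, 10.44, 10.51 and 10.43 in Teff, against 12.04, 12.00, 12.17, 12.37 and 12.15 in naive cells. Every naive array lay above every array of both other groups. It fell in both, with a difference of -1.94 (SE 0.17, adjusted p = 3.48e-07) in Tpm against naive cells and -1.67 (SE 0.16, adjusted p = 2.38e-07) in Teff against naive cells, and differed by -0.26 (SE 0.17, adjusted p = 0.298) in Tpm against Teff, with an interval of -0.63 to 0.10.

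Slc3a2 (CD98 heavy chain), the partner chain of several carriers, ranged from 4.94 to 7.52 in Tpm and 5.37 to 7.16 in Teff, against 6.16 to 7.87 in naive cells, and was not called. Slc38a1 (SNAT1), a glutamine carrier, differed by -0.51 in Tpm against naive cells and -0.07 in Teff against naive cells, without a call. Without Tpm 7, Slc3a2 was called lower in Tpm than in naive cells, at -1.66 (adjusted p = 0.0232). It was also called lower there with arrays 12 to 17 as a covariate, and in none of the other alternatives. Within Tpm, Teff and naive cells alike, its values on arrays numbered 12 to 17 lay below those on all earlier arrays. The same held for Atf5, and for the brightest Atf4 probe within Tpm and naive cells. Aldh18a1 lay the other way, above all earlier arrays of its group in Tpm, Teff and naive cells. Slc7a11, the cystine carrier, and Slc1a5 (ASCT2), the glutamine carrier, were near background on most arrays, and Slc7a1, a carrier of cationic amino acids, was not tested. A fall or a small rise of these 3 was not detectable at this signal, and their means in Teff were 4.59, 4.63 and 4.40.

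Among the aminoacyl-tRNA synthetases, which load amino acids onto tRNAs, 2 of 5 were higher in Teff than in naive cells and 2 in Tpm than in naive cells. Aars, for alanine, measured 9.02, 8.99, 9.31 and 8.96 in Tpm and 9.54, 9.49, 9.43, 9.67 and 10.12 in Teff, against 8.19, 8.24, 7.94, 7.81 and 7.67 in naive cells. The 3 groups did not overlap. Aars was higher in Tpm than in naive cells by 1.10 (SE 0.17, adjusted p = 0.000115) and in Teff than in naive cells by 1.68 (SE 0.16, adjusted p = 1.69e-07), and differed by -0.58 (SE 0.17, adjusted p = 0.0154) in Tpm against Teff, under the minimum for a call. Sars, for serine, measured 7.31, 7.27, 7.55 and 7.91 in Tpm and 8.86, 8.69, 8.26, 8.88 and 8.99 in Teff, against 7.95, 7.59, 7.63, 7.69 and 7.52 in naive cells. Teff lay above both other groups, which overlapped. Sars differed by 1.06 (SE 0.32, adjusted p = 0.0119) in Teff against naive cells, -1.23 (SE 0.34, adjusted p = 0.0104) in Tpm against Teff and -0.17 (SE 0.34, adjusted p = 0.79) in Tpm against naive cells, the last without a call. Without Teff 17, the difference in Teff against naive cells was 0.99 (adjusted p = 0.0297), under the minimum.

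Wars, for tryptophan, was the only one of the 28 genes called higher in Tpm than in Teff. Wars measured 8.69, 8.50, 9.22 and 9.05 in Tpm and 7.43, 7.68, 7.41, 7.72 and 7.99 in Teff, against 7.85, 7.48, 7.13, 7.72 and 7.53 in naive cells. All Tpm arrays lay above all arrays of both other groups. Wars differed by 1.32 (SE 0.43, adjusted p = 0.0308) in Tpm against naive cells and 1.22 (SE 0.43, adjusted p = 0.0415) in Tpm against Teff. Both calls were near the threshold: the first was kept in 22 and the second in 16 of 30 alternatives, and without Tpm 14 the differences were 1.21 (adjusted p = 0.0783) and 1.10 (adjusted p = 0.0949), neither called. The 3 other kept Wars probes, all dimmer, differed by 0.10 to 0.77 in Tpm against Teff without a call. Gars, for glycine, and Nars, for asparagine, differed by 0.87 (SE 0.16, adjusted p = 0.000194) and 0.51 (SE 0.20, adjusted p = 0.044) in Teff against naive cells, both under the minimum for a call.

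**Figure D4:**
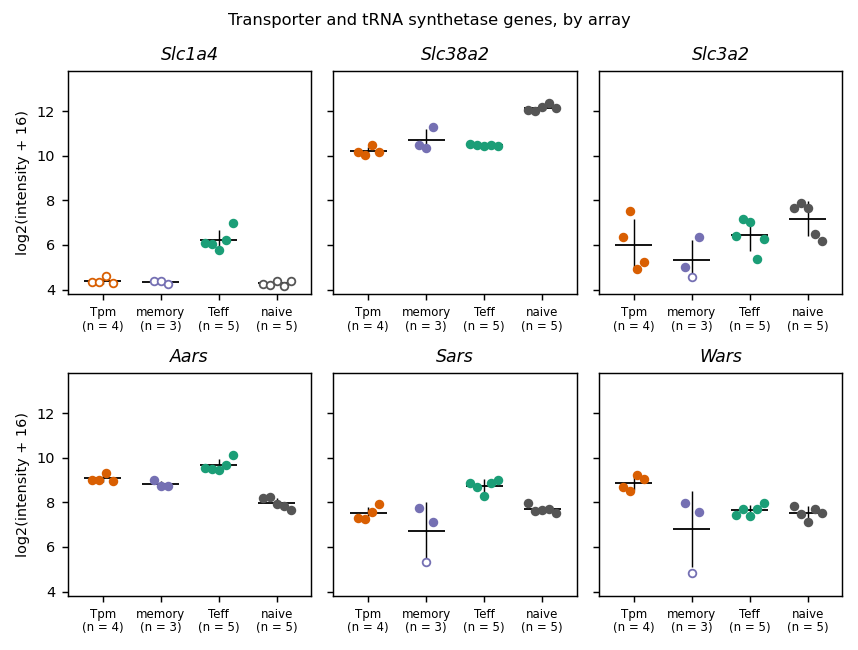
Levels of 3 transporter and 3 synthetase genes in log2(intensity + 16) on each array of Tpm, memory, Teff and naive cells, drawn like the stress targets. Slc1a4 is above background in Teff alone, Slc38a2 is highest on the 5 naive arrays, and Wars is highest on the 4 Tpm arrays at 8.50 to 9.22.

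Several members had other kept probes, which were read as well. Asns had 2 further kept probes, which differed by 4.99 (SE 0.22, adjusted p = 1.96e-11) and 2.71 (SE 0.16, adjusted p = 5.29e-10) in Teff against naive cells and by -3.05 (SE 0.23, adjusted p = 3.95e-08) and -2.57 (SE 0.17, adjusted p = 7.03e-09) in Tpm against Teff. The brighter of them differed by 1.94 (SE 0.23, adjusted p = 8.15e-06) in Tpm against naive cells, and the dimmer was above background on no array of either group. A second Mthfd2 probe differed by 2.66 (SE 0.33, adjusted p = 5.16e-06) in Teff against naive cells and -1.98 (SE 0.35, adjusted p = 0.000458) in Tpm against Teff, and by 0.68 (SE 0.35, adjusted p = 0.209) in Tpm against naive cells, where it was not called. A second Slc38a2 probe was called lower at -1.82 (SE 0.29, adjusted p = 0.000162) in Tpm against naive cells and at -1.41 (SE 0.27, adjusted p = 0.000404) in Teff against naive cells. The second Sars probe was called lower in Tpm than in Teff, at -1.03 (SE 0.35, adjusted p = 0.0406), but was not called in Teff against naive cells, with 0.51 (SE 0.33, adjusted p = 0.251). For Shmt1 and Trib3 the calls rest on the brightest probe. A second, dimmer Shmt1 probe, above background on 3 of 4 Tpm, 4 of 5 Teff and no naive arrays, differed by 0.80 (SE 0.27, adjusted p = 0.0436) in Tpm against naive cells and 0.65 (SE 0.25, adjusted p = 0.0536) in Teff against naive cells, neither a call. Of 2 further Trib3 probes, above background on 4 and 3 of 5 Teff arrays, the first differed by 0.77 (SE 0.18, adjusted p = 0.00242) in Teff against naive cells and -0.81 (SE 0.19, adjusted p = 0.0046) in Tpm against Teff, under the minimum for a call. The other differed by 0.46 (SE 0.18, adjusted p = 0.0559) in Teff against naive cells and -0.31 (SE 0.20, adjusted p = 0.299) in Tpm against Teff, without a call.

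**Figure D5:**
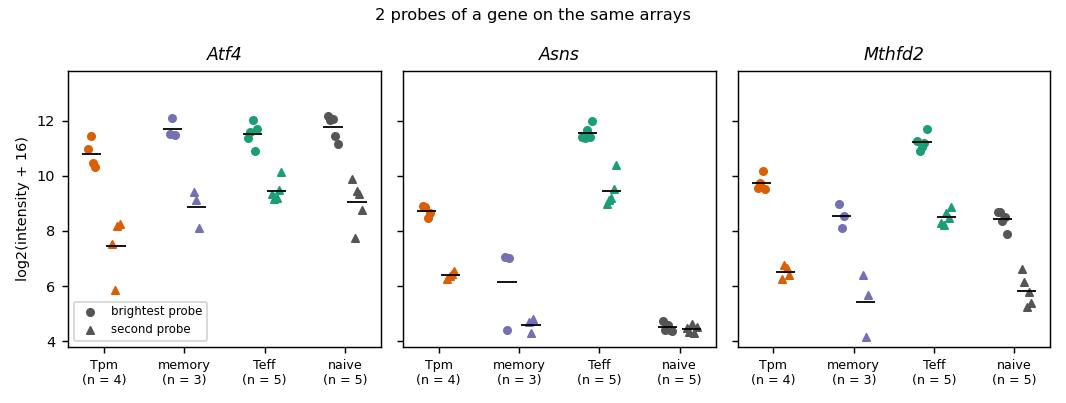
Levels of Atf4, Asns and Mthfd2 by the brightest probe (circles) and the next brightest kept probe (triangles) in log2(intensity + 16) on each array of Tpm, memory, Teff and naive cells, with group means as lines. Both Asns probes are highest in Teff. The second Atf4 probe lies at 5.86 to 8.24 in Tpm and 9.16 to 10.15 in Teff, against 7.73 to 9.88 in naive cells.

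Other genes of these pathways, from lists of 104 genes outside the 34, of which 76 were tested, were read for the same comparisons. In Teff against naive cells 24 were higher and 7 lower, in Tpm against naive cells 7 and 4, and in Tpm against Teff 2 and 18, with medians of 0.34, 0.18 and -0.25. As shares of the 76, that is 31.6% higher and 9.21% lower in Teff against naive cells, 9.21% and 5.26% in Tpm against naive cells, and 2.63% and 23.7% in Tpm against Teff. The shares in Tpm against naive cells are near the 8.3% and 4.75% of all genes. Of 14 further ATF4 targets, 9 were higher and 2 lower in Teff than in naive cells, 3 and 1 in Tpm than in naive cells, and 1 and 9 in Tpm than in Teff. In Teff against naive cells the largest were Vegfa, a growth factor for vessels, at 5.30 (above background on 1 of 5 naive arrays), Vldlr, a lipoprotein receptor, at least 17.4-fold higher, and Eif4ebp1, a repressor of cap-dependent translation, at 4.38. Gadd45a and Txnip were lower there, with differences of -1.73 and -1.44. In Tpm against naive cells Vegfa differed by 2.50, Eif4ebp1 by 2.32 and Gadd45a by -1.46, and Jdp2 was at least 1.57-fold higher. In Tpm against Teff, Vldlr differed by -4.10 and the mitochondrial protease Lonp1 by -2.93, the secreted hormone Stc2 was at least 11.3-fold lower, and Txnip, an inhibitor of glucose uptake, was higher by 2.24.

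Of 16 further one-carbon genes, 6 were higher in Teff than in naive cells, 3 were higher in Tpm than in naive cells, and 3 were lower in Tpm than in Teff. Thymidylate synthase, Tyms, differed by 2.42 in Teff against naive cells and 1.61 in Tpm against naive cells. Gldc, of the glycine cleavage system, was at least 3.11-fold higher in Teff than in naive cells, and Ahcy, which hydrolyses S-adenosylhomocysteine, was higher by 1.78. In Tpm against naive cells the folate carrier Slc19a1 differed by 1.44 and the purine enzyme Pfas by 1.08. In Tpm against Teff, Ahcy differed by -1.62, Gldc was at least 3.1-fold lower and Aldh1l2, the mitochondrial formyl-folate dehydrogenase, at least 1.87-fold lower.

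Among 10 further amino acid enzymes, 3 were higher in Teff than in naive cells: Bcat1, which transaminates branched-chain amino acids, by 4.42, Got2 by 1.16 and Pycrl by 1.07. Bcat1 was also higher in Tpm than in naive cells, by 3.24, with 1 of 5 naive arrays above background, and lower in Tpm than in Teff, at -1.17. Oat, which links ornithine to proline, was lower in Tpm than in naive cells, at -1.07, and than in Teff, at -1.09. Of 12 further transporters, Slc7a3, a carrier of cationic amino acids, and Slc6a9, a glycine carrier, were higher in Teff than in naive cells by 3.44 and 2.01 and lower in Tpm than in Teff, with differences of -3.19 and -2.03. Slc7a6 ran the other way, at -1.10 in Teff against naive cells and 1.02 in Tpm against Teff. None of the 12 was called in Tpm against naive cells by limma, where 1 had an unadjusted p under 0.05.

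Of 14 further synthetases, 4 were higher in Teff than in naive cells, led by Mars1 at 1.60, Iars at 1.51 and Vars at 1.34, and Farsa and Hars were lower, with differences of -1.26 and -1.19. In Tpm against Teff, Eprs and Iars were lower, at -1.33 and -1.32, and none was called in Tpm against naive cells by limma, where 2 higher and 1 lower had an unadjusted p under 0.05. Of 10 genes of the sensing kinases and their regulators, 2 were lower in Tpm than in naive cells and 2 in Teff than in naive cells. Eif2ak3 (PERK), the eIF2 alpha kinase of the endoplasmic reticulum, was lower in both, with a difference of -1.05 in Tpm against naive cells and of -1.21 in Teff against naive cells. Impact, a GCN2 inhibitor, was lower in Teff than in naive cells, at -1.70, and Ppp1r15b, the constitutive partner of the eIF2 alpha phosphatase, was lower in Tpm than in naive cells, at -1.11. Eif2ak4, the gene of GCN2 itself, and Eif2s1, that of eIF2 alpha, were not among the 10 tested genes.

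Markers of cell division and of other cells moved with the groups. The summed intensity of 13 division genes was 2482 to 8891 in Tpm and 17825 to 19493 in Teff, against 854 to 1573 in naive cells, with Tpm 14 highest among Tpm. The brightest division genes were Nusap1, Cdc20 and Bub1b in Tpm and Nusap1, Top2a and Bub1b in Teff. Of 20 endothelial markers, led in Tpm by Igfbp7, Angpt2 and Egfl7, the sum was 4805 to 8292 in Tpm and 1167 to 1659 in Teff, against 337 to 810 in naive cells, while Kdr and Vwf were not above background on any Tpm array. Pecam1 and Mrc1 ran the other way, with means of 7.54 and 5.29 in Tpm, against 8.21 and 5.99 in naive cells. Stab1 averaged 9.36 in Teff, against 7.55 in Tpm, and Egfl7 8.17 in Teff, against 8.95 in Tpm. Of 13 stromal markers, led by Bgn, Col4a1 and Dcn, the sum was 2052 to 3055 in Tpm and 55.6 to 74.7 in Teff, against 54.7 to 71.2 in naive cells, while Pdgfrb and Lrat were not above background in Tpm. The sum of 13 dendritic cell markers was 563 to 9449 in Tpm and 2092 to 3575 in Teff, against 444 to 3329 in naive cells. Its brightest markers in Teff were H2-Ab1 and Batf3, with means of 11.05 and 9.09, against 8.67 and 4.43 in naive cells. Other markers ran the other way: H2-Aa and Cd74 averaged 4.89 and 6.22 in Teff, against 8.65 and 8.71 in naive cells. The means of H2-Eb1 and Siglech were also lower in Teff than in naive cells. The sum of 10 macrophage markers was 143 to 4656 in Tpm and 44.4 to 64.6 in Teff, against 172 to 1648 in naive cells. Tpm 14 was the highest Tpm array for both the dendritic cell and the macrophage sum. That of 7 erythroid markers was 25.0 to 40.2 in Tpm and 21.3 to 33.1 in Teff, against 6027 to 35241 in naive cells. Sums of 5 B-cell and 7 hepatocyte markers were at most 173 and 434 in Tpm. The division, endothelial and stromal sums were above the naive range on every Tpm array. Asns, Ddit4, Psat1, Shmt1, Mthfd2, Aars, Ppp1r15a and Slc38a2 were also called in Tpm against naive cells without Tpm 14, and Wars was not. The part of these markers in the results on the 28 genes was not tested.

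Memory cells were compared with Teff over all 28 tested genes. By limma, 0 of 28 genes were higher and 13 lower in memory cells against Teff, where 10.6% and 15.1% of all genes were called (25.6% in either direction), and none of the 28 was higher at an unadjusted p under 0.05. The comparison had a median of -0.99 beside -0.07 over all genes. Without memory 3 and memory 5 it had 0 higher and 13 lower, 12 of them shared with the 13 above, and a median of -1.18 beside -0.03. Asns measured 7.06, 4.39 and 7.02 in memory cells and differed by -5.40 (SE 0.42, adjusted p = 1.82e-08) from Teff. Psat1 measured 8.91, 7.44 and 8.08 in memory cells and differed by -3.88 (SE 0.24, adjusted p = 1.46e-09) from Teff. Both genes lay below every Teff array on all 3 memory arrays. Chac1 was above background on no memory array and at least 7.48-fold lower in memory cells than in Teff (adjusted p = 5.49e-09). These calls did not rest on the dim arrays alone: without memory 3 and memory 5, on 1 memory array that is assumed to vary like the other groups, Asns differed by -4.56 (adjusted p = 1.19e-08), Chac1 by -3.88 (adjusted p = 5.07e-06) and Psat1 by -3.95 (adjusted p = 1.49e-08) from Teff.

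Against naive cells, 2 genes were higher and 5 lower in memory cells, beside 5.54% and 6.85% of all genes. Without both dim arrays, several of these calls ended. That setting leaves memory 9 alone, so that it cannot tell a call that rested on the dim arrays from one lost with the number of arrays. Asns differed by 1.65 (SE 0.42, adjusted p = 0.00848), by 2.62 (adjusted p = 6.68e-06) without both dim arrays, and by 1.22 (adjusted p = 0.0568) without memory 3 alone, which ended the call. On memory 5 its value of 4.39 was in the naive range, and memory 3 and memory 9 lay above all naive arrays. The 2 further kept Asns probes each differed by 0.15 in memory against naive cells, without a call (limma adjusted p = 0.613 and 0.742). They were above background on 0 and 1 of the 3 memory arrays, so that this Asns call rests on the brightest probe. Ddit4 measured 6.92, 5.62 and 7.08 in memory cells and differed by 1.74 (SE 0.53, adjusted p = 0.0254) from naive cells, and by 2.36 (adjusted p = 0.0621) without both dim arrays, which was not called. Cebpb differed by -1.97 (SE 0.29, adjusted p = 8.97e-05) and, without both, by -2.44 (adjusted p = 0.00117). Ppp1r15a measured 9.95, 9.41 and 6.14 in memory cells, with memory 9 far below memory 3 and memory 5. It differed by -2.63 (SE 0.61, adjusted p = 0.00449) from naive cells and, on memory 9 alone, by -5.03 (adjusted p = 5.77e-06). Atf5, Slc38a2 and Slc3a2 were lower, at -1.52 (SE 0.26, adjusted p = 0.00034), -1.44 (SE 0.19, adjusted p = 2.93e-05) and -1.86 (SE 0.58, adjusted p = 0.0286). Atf5 and Slc38a2 kept the call without memory 3 alone and without memory 5 alone, and lost it on memory 9 alone. Slc3a2 lost it in each of these settings.

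In Tpm against memory cells, 7 genes were higher and 1 lower, against 9.51% and 5.09% of all genes, with a median of 0.39 beside 0.13. Without both dim arrays 6 were higher, 5 of them among the 7 and the other Cebpb, and 1 was lower, Slc38a2 in place of Ppp1r15a. The higher genes were Shmt1 at 3.17 (SE 0.40, adjusted p = 1.97e-05), Asns at 2.58 (SE 0.44, adjusted p = 0.000341), Psat1 at 2.23 (SE 0.25, adjusted p = 6.25e-06), Wars at 2.07 (SE 0.49, adjusted p = 0.00487), Atf5 at 1.64 (SE 0.27, adjusted p = 0.000245), Mthfd2 at 1.21 (SE 0.25, adjusted p = 0.00188) and Trib3 at 1.02 (SE 0.36, adjusted p = 0.0454). Without both dim arrays, Shmt1 differed by 2.87 (adjusted p = 0.00163), Psat1 by 2.30 (adjusted p = 9.75e-06) and Asns by 1.73 (adjusted p = 0.000424). Ppp1r15a was lower in Tpm than in memory cells, at -1.81 (SE 0.63, adjusted p = 0.0458), a call that ended and turned direction on memory 9 alone, at 0.56 (adjusted p = 0.564). Wars differed there by 1.31 (adjusted p = 0.0118), Atf5 by 1.07 (adjusted p = 0.0543), Mthfd2 by 1.20 (adjusted p = 0.0297) and Trib3 by 1.26 (adjusted p = 0.0618). The Mthfd2 call ended without memory 5, at 0.996 (adjusted p = 0.0143), under the minimum. The Trib3 call was kept in 8 of 30 alternatives and ended without any 1 of Tpm 7, Tpm 14, Tpm 15, memory 5, memory 9, Teff 6, Teff 8, Teff 10, Teff 16, naive 1, naive 11 or naive 13, and that of Ppp1r15a was kept in 10 of 30.

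The markers moved with the memory comparisons as well. The division sum was 290 to 1087 in memory cells, against 17825 to 19493 in Teff and 854 to 1573 in naive cells. The erythroid sum was 25.0 to 40.2 in Tpm, against 5908 to 15175 in memory cells. In memory cells it lay above the Teff range of 21.3 to 33.1 and overlapped that of naive cells. The endothelial sum of 2062 to 3098 in memory cells lay below that of every Tpm array and above those of all Teff and naive arrays. Its brightest marker in memory cells was Fcgr2b, with a mean of 10.85, against 7.82 in Tpm, 4.32 in Teff and 4.59 in naive cells. Of the 20 markers, 12, 3 and 3 were above background on memory 3, memory 5 and memory 9. That compares with 5 to 8 on Teff and 3 to 8 on naive arrays. The stromal sum was 62.6 to 541 in memory cells. Dendritic cell markers summed to 635 to 3006 in memory cells, macrophage markers to 135 to 631, B-cell markers to 101 to 370 and hepatocyte markers to 31.9 to 171. Their part in the memory results was not tested.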

How the data were processed

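RNA of 17 samples was hybridised to 1 array each, after extraction with QIAzol and labelling as biotinylated cRNA, per the labels' protocols. The values are linear signal intensity per probe as deposited by the authors, for 45281 probes, with no background subtraction, per the file headers and the values. A second table deposited by the authors holds the same intensity values after quantile normalization, as its sorted columns show, with a median of 97.8 in every column. It was used as an alternative. The scanner and its software were not given in the sources used here.

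Background was estimated per array from its own signals: the mode served as its mean, and its SD was the quadratic mean of deviations under the mode. Signals were corrected by normexp with these estimates, 16 was added, arrays were quantile normalized and log2 was taken. Signals over the mode plus 2.326 SD counted as above background. Probes with that on 3 or more arrays were kept (20204, of which 16976 had 1 symbol in the platform table), and each of 10717 genes was read from its brightest kept probe. Groups came from the labels. limma (version 3.58.1, R version 4.3.3) fitted 1 coefficient per group over all 17 arrays, with moderation by empirical Bayes. Tests were two-sided, and Benjamini-Hochberg adjustment ran over all 10717 genes in each of 6 comparisons. The fit was tested on simulated data. Where a gene was above background on none of a group's arrays, its change is given as a bound, at least N-fold, set per array against whichever is higher of the gene's value and the lowest measurable one (4.65 to 4.97 on the 15 brighter arrays, 6.42 on memory 5). The number of arrays, 17, limits the precision.

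Single-array values are given for members called in Tpm against naive, Tpm against Teff or Teff against naive, and for Atf4, and up to 3 called genes per direction and comparison are named from each other pathway list. The members and the lists were chosen with earlier results of these data known. The 30 alternatives changed the offset, background correction, scaling, filter, probe choice, variance model and the arrays used.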

Additional observations from a re-analysis of the deposited data

Results flagged for a closer look

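Of 84 groups of 4 or 5 arrays examined, 1 held an array that stood apart from the others of its group: Ppp1r15a on Teff 10 measured 7.02, against 7.75 to 7.97 on the other Teff arrays, a gap of 0.772 of the range of the group. Chance alone gives about 1 such array in 20 groups. All 5 Teff values lay below every naive array, whose lowest was 10.24.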

How the results depend on the processing

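No paired analysis was possible because the sample numbers run through all groups and no number occurs in more than 1 group. In Teff against naive cells, Asns, Chac1, Trib3, Ddit4, Psat1, Shmt1, Mthfd2 and Aars were called higher and Ppp1r15a lower in all 30 alternatives, and in Tpm against Teff, Asns, Chac1, Trib3, Ddit4, Psat1 and Mthfd2 were called lower in all 30. Leaving out each array in turn, the genes called in Tpm against naive cells were 6 to 7 higher and 2 to 4 lower, in Tpm against Teff 0 to 1 and 9 to 11, in Tpm against memory cells 6 to 10 and 0 to 1, in Teff against naive cells 10 to 13 and 3, in memory against naive cells 0 to 2 and 4 to 8, and in memory cells against Teff 0 to 1 and 12 to 17. The call of Wars in Tpm against Teff ended without any 1 of Tpm 4, Tpm 14, Tpm 15, Teff 6, Teff 8, Teff 10, Teff 16, naive 2 or naive 12, and that in Tpm against naive cells without any 1 of Tpm 4, Tpm 14, Tpm 15, naive 2 or naive 11.

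Scaling to the median of each array in place of quantiles moved the median of all genes to 0.12 in Tpm against naive cells, 0.17 in Teff against naive cells, 1.02 in Tpm against memory cells, -0.79 in memory against naive cells and -1.09 in memory cells against Teff. With it, genes called were 4 higher in Tpm against naive cells, 0 higher in Tpm against Teff, 17 higher and 0 lower in Tpm against memory cells, 1 lower in Teff against naive cells, 1 higher and 14 lower in memory against naive cells and 25 lower in memory cells against Teff. Over all genes it gave 671 higher and 225 lower in Tpm against naive cells (889 and 509 with quantiles), 379 and 813 in Tpm against Teff (788 and 817), 4496 and 55 in Tpm against memory cells (1019 and 546), 1727 and 543 in Teff against naive cells (1413 and 1116), 83 and 3600 in memory against naive cells (594 and 734), and 102 and 5073 in memory cells against Teff (1132 and 1613).

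Without background correction, and in the authors' table, genes called were 0 higher and 6 lower in Tpm against Teff and 0 higher and 3 lower in memory against naive cells. All genes called in Teff against naive cells were then 780 higher and 609 lower, and 780 and 607. The calls of Phgdh, Slc1a4 and Sars in Teff against naive cells and in Tpm against Teff, of Cebpg in Tpm against Teff and of Aars in Tpm against naive cells ended in both. Tpm against Teff had 0 higher with no filter and with the mean of probes. Tpm against naive cells had 4 lower with array weights, with arrays 12 to 17 as a covariate and with no minimum difference. Tpm against memory cells had 0 lower with no filter, array weights, only the 2 groups or the covariate, and 2 with the mean of probes. Memory against naive cells had 1 higher with an offset of 50, no filter, the mean of probes or only the 2 groups, and 1 higher and 2 lower without memory 3 and memory 5, an alternative chosen after seeing the data. That setting turned Ppp1r15a in Tpm against memory cells to 0.56. The causes were not tested. Signal limits Sesn2, Psph, Slc7a1, Slc7a11 and Slc1a5, which were near background.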

Other observations

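Genes of the MYC network, which is known to drive growth and amino acid uptake in activated T cells, were read as a list of 5 tested genes. Myc averaged 5.12 in Tpm and 6.36 in Teff, against 4.69 in naive cells, and was higher in Teff than in naive cells by 1.67 and lower in Tpm than in Teff, with a difference of -1.24. Mxi1, a MAX-binding antagonist of MYC, was higher in Teff than in naive cells by 2.67 and differed by -2.42 in Tpm against Teff. Mxd4, a repressor of the same family, was higher in Tpm than in Teff by 1.63. Mxd1, another repressor, was lower in both groups than in naive cells, with a difference of -1.57 in Tpm against naive cells and -1.78 in Teff against naive cells. These 5 genes are no members of the 34, and their relation to the members was not tested.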
